A study of Caenorhabditis elegans with 10 samples.

Results

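Glutathione S-transferases are enzymes that join the tripeptide glutathione to reactive or foreign molecules, which makes these molecules soluble and ready for export. In C. elegans they form a large family, much of it expressed in the intestine, and several members are switched on by the oxidative stress factor SKN-1, with a gst-4 reporter as the common readout of that response. The members described here are the nuclear protein-coding genes whose symbol begins with gst-, which are 44 of the 19971 in the WBcel235 gene table. The omega and kappa class transferases carry other symbols and are treated apart, with the rest of the glutathione pathway.

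Chromatin immunoprecipitation and sequencing (ChIP-seq) was done on whole day 1 adults for 3 transcription factors: CEH-60, of the PBX homeodomain family, UNC-62, of the MEIS homeodomain family, and the zinc finger protein PQM-1. CEH-60 and UNC-62 act in the intestine, where they are known for driving yolk gene expression, and PQM-1 is known for binding near stress and metabolic genes of that tissue. There were 8 peak lists in 7 groups, and the 2 input samples were not analysed here. The strain DLS396, with ceh-60(rhd116) and gaIs285, gave an UNC-62 list (anti-GFP, 3E6) and a CEH-60 list (anti-HA, 3F10). DLS395, with ceh-60(rhd116), gave a CEH-60 list with the further anti-HA antibody mIgG1, and CEH-60 replicates 1 and 2 with 3F10. DLS422, with ceh-60(ok1485) and wgIs201, and OP201, with unc-119(tm4063) and wgIs201, gave PQM-1 lists (anti-FLAG, M2). The label of DLS422 does not name unc-119(tm4063), so as labelled these strains differ at more than ceh-60. DLS435, with pqm-1(ok485) and ceh-60(rhd116), gave a CEH-60 list with 3F10. All CEH-60 and UNC-62 lists are therefore from animals that carry ceh-60(rhd116), and both PQM-1 lists from animals with the transgene wgIs201. The antibodies recognise tags (HA, GFP and FLAG) and not the factors themselves. Both DLS396 lists, the mIgG1 list and CEH-60 replicate 1 were crosslinked with 2% formaldehyde for 30 min after growth at 20 °C, and the other 4 with 1% for 5 min.

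A gene counted as bound when the summit of a peak was at most 1000 bp outside, or 200 bp inside, either of its ends. The gene table gives no strand, so a 5′ end cannot be told from a 3′ end, and a peak between neighbouring genes can count for both. Each peak has a fold enrichment over its local background, which is the authors' value and is used to describe and rank peaks within 1 list. Ranks are given by fold among the nuclear peaks of the list, 1 being the strongest. The lists held between 2048 (CEH-60 in DLS435) and 9010 (CEH-60 replicate 1) peaks, and read depth is unknown. Every group but CEH-60 in DLS395 with 3F10 had 1 list, and its replicates differ in crosslinking, so no p-value is given. Intestine markers were bound most often of the tissue markers, with 10 of 10 in CEH-60 replicate 1 and in CEH-60 of DLS396 and 5 to 8 of 10 in the other 6 lists. The share of all genes bound ran from 5.44% (CEH-60 in DLS435) to 25.5% (CEH-60 in DLS396). Of the markers of hypodermis, muscle, neurons, germline and pharynx, 3 or 4 for each, no list bound more than 1 for any tissue. A single bound marker is 25.0 to 33.3% of such a set, so these sets are too small to set against the share of all genes. In whole animals, binding in fewer cells and less binding per cell cannot be told apart.

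Of the 44 gst genes, 24 were bound in at least 1 list and 20 in none, and over all genes 29.8% were bound in at least 1. CEH-60 was at an end of 23 of the 44 in at least 1 of its 5 lists, against 28.2% of all genes, PQM-1 at 14, against 18.3%, and UNC-62 at 6, against 6.18%. All 3 factors were found at gst-5, gst-6, gst-7, gst-36 and gst-42, which is 5 of the 44, against 5.47% of all genes. CEH-60 and PQM-1 without UNC-62 were found at 8 gst genes, against 11.2% of all genes, namely gst-1, gst-13, gst-20, gst-22, gst-24, gst-26, gst-27 and gst-38. CEH-60 and UNC-62 without PQM-1 were found at gst-29 alone, against 0.661% of all genes, and PQM-1 by itself at gst-8 alone, against 1.6%. CEH-60 was the one factor found at 9 gst genes, against 10.9% of all genes: gst-2, gst-4, gst-11, gst-23, gst-28, gst-31, gst-33, gst-41 and gst-44. No gst gene had UNC-62 without CEH-60, and over all genes 11 of the 1235 bound by UNC-62 had none.

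**Figure D1:**
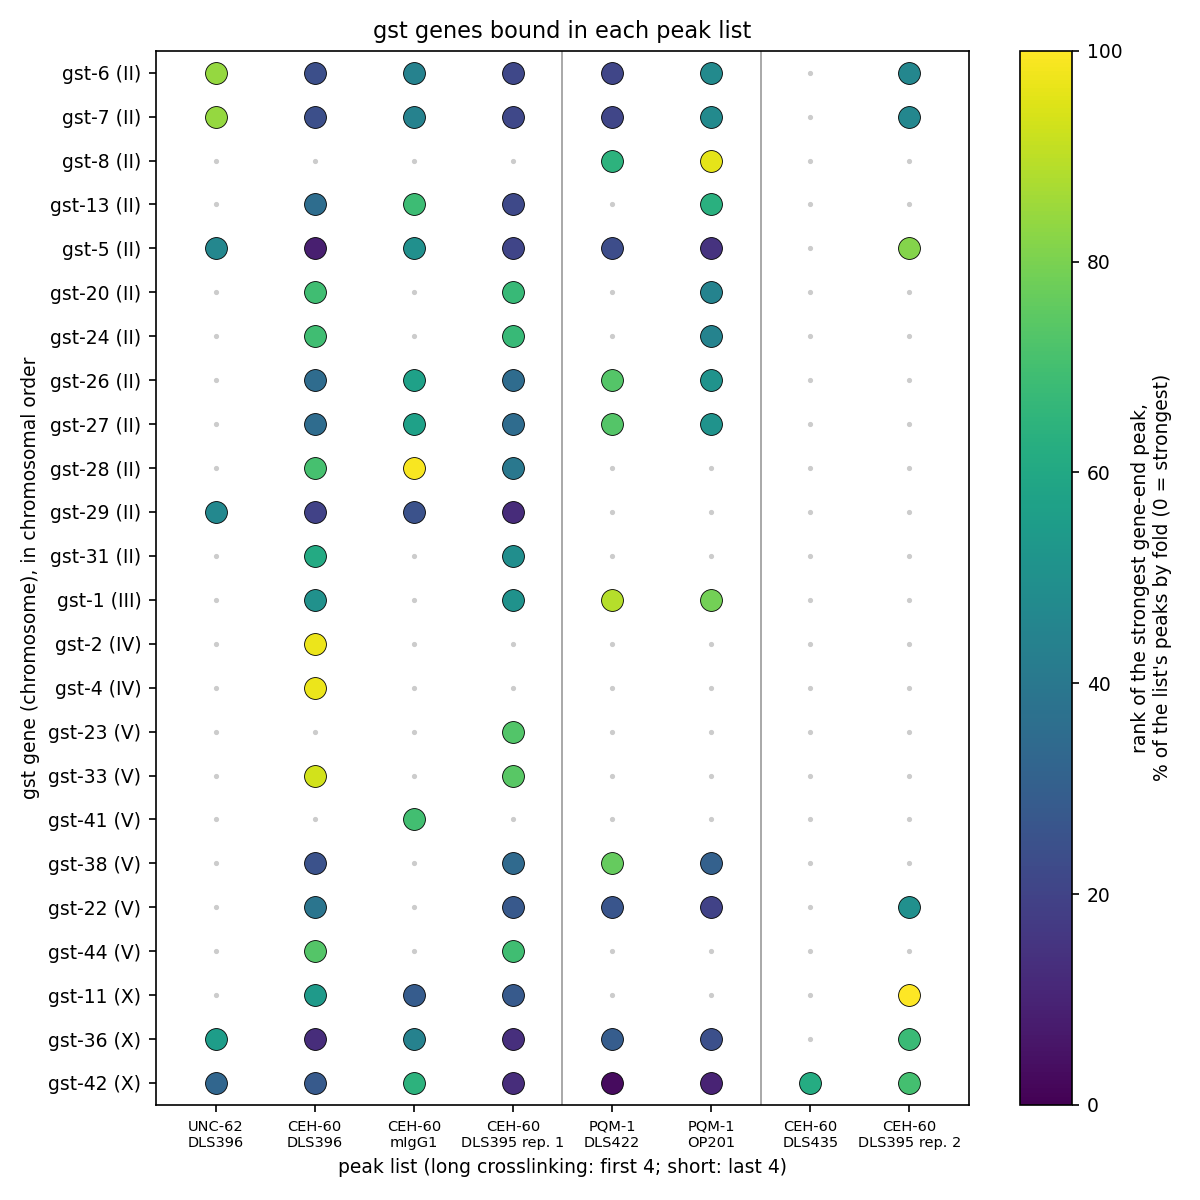
Each row is 1 of the 24 gst genes bound in any list, with its chromosome, and each column is 1 peak list, with long crosslinking in the first 4 columns. A filled circle marks a bound gene and its colour gives the rank of the strongest gene-end peak as a percentage of the list's peaks by fold. gst-42 is filled in all 8 columns, gst-5, gst-6, gst-7 and gst-36 in 7, and the column of CEH-60 in DLS435 holds 1 circle.

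The share of gst genes bound was above the share of all nuclear protein-coding genes in 7 of the 8 lists. UNC-62 in DLS396 bound 6 of 44 gst genes, or 13.6% (Wilson 95% interval 6.4 to 26.7%), against 6.18% of all genes. CEH-60 in DLS396 bound 21, or 47.7% (33.8 to 62.1%), against 25.5%. The mIgG1 list bound 12, or 27.3% (16.3 to 41.8%), against 12.8%. CEH-60 replicate 1 bound 20, or 45.5% (31.7 to 59.9%), against 25.2%. These 4 lists come from long crosslinking, and in each of them the gst interval lay above the share of all genes. With 500 bp outside a gene as the limit, the UNC-62 interval held the share of all genes (9.09%, 3.59 to 21.2%, against 4.31%). With the 2000 peaks of highest fold, so did those of CEH-60 in DLS396 (6.82%, 2.35 to 18.2%, against 6.22%) and of mIgG1 (11.4%, 4.95 to 24.0%, against 5.87%).

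With short crosslinking, PQM-1 in DLS422 bound 11 gst genes, or 25.0% (14.6 to 39.4%), against 13.4% of all genes. PQM-1 in OP201 bound 14, or 31.8% (20.0 to 46.6%), against 16.9%. CEH-60 in DLS435 bound 1, or 2.27% (0.402 to 11.8%), against 5.44%. CEH-60 replicate 2 bound 7, or 15.9% (7.93 to 29.4%), against 9.66%. Both PQM-1 intervals lay above the share of all genes, and both CEH-60 intervals of this protocol held it. The DLS422 interval held the share of all genes with a limit of 2000 bp (27.3%, 16.3 to 41.8%, against 18.2%), with any base of a peak in the window (25.0%, 14.6 to 39.4%, against 14.9%) and with the 2000 peaks of highest fold (13.6%, 6.4 to 26.7%, against 6.78%). The OP201 interval held it with the 2000 peaks of highest fold (11.4%, 4.95 to 24.0%, against 7.34%). The intervals treat genes as independent and cover counting error only, although neighbouring gst genes can share a peak.

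Among the large detoxification families, gst genes had the lowest share bound in CEH-60 of DLS396 and replicate 1, with cytochrome P450 (cyp) genes at 55.4% in both and glucuronosyltransferase (ugt) genes at 67.2% in DLS396 and 61.2% in replicate 1. In PQM-1 of OP201 the shares were 31.8% for gst, 52.2% for ugt and 35.1% for cyp genes. In CEH-60 replicate 2 they were 15.9% for gst, 32.8% for ugt and 12.2% for cyp genes. The gst share was also above that of cyp with mIgG1 (27.3% against 21.6%) and in PQM-1 of DLS422 (25.0% against 21.6%). It was below that of cyp in UNC-62 (13.6% against 16.2%) and in CEH-60 of DLS435 (2.27% against 6.76%). The gst share was below that of ugt in all 8 lists. The gst Wilson interval overlapped those of ugt and of cyp in each list, and no test between families was made.

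**Figure D2:**
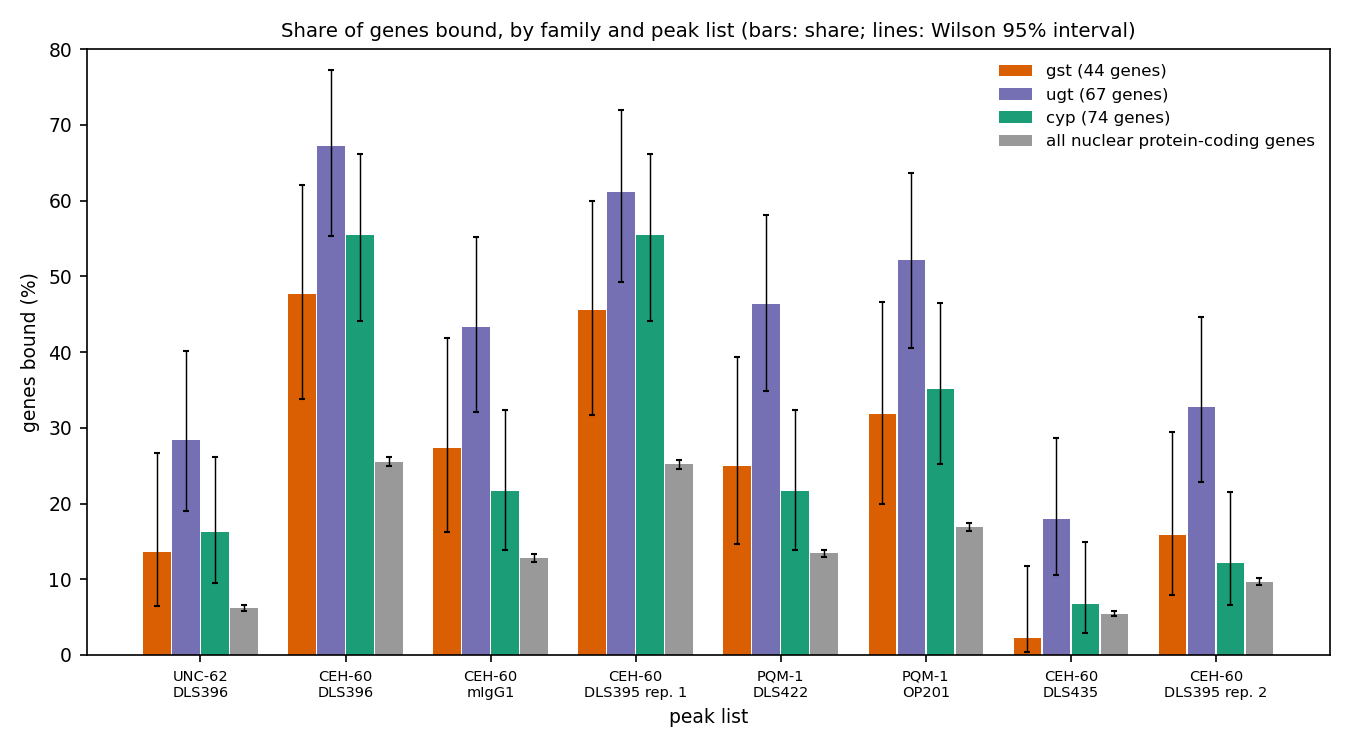
Bars give the percentage of gst, ugt, cyp and all nuclear protein-coding genes bound in each of the 8 peak lists, and lines give Wilson 95% intervals. The gst bar is above that of all genes in every list but CEH-60 in DLS435, where it is 2.27% against 5.44%.

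gst-42 on chromosome X, which encodes the maleylacetoacetate isomerase of tyrosine breakdown, was the 1 gst gene of 44 bound in all 8 lists, and over all genes 3.01% were. Its peaks lay over 1 end of the gene, with summits within 67 bp of each other, and the CEH-60 replicate 1 peak ran from X 11727646 to 11728164. The fold was 4.96 in the UNC-62 list, 8.87 in CEH-60 of DLS396, 3.80 with mIgG1 and 9.27 in CEH-60 replicate 1. With short crosslinking it was 3.82 for PQM-1 in DLS422, 3.43 for PQM-1 in OP201, 2.18 for CEH-60 in DLS435 and 2.11 for CEH-60 replicate 2. The PQM-1 peak ranked 151 of 5020 in DLS422 and 565 of 6001 in OP201, the strongest gst peak of both lists. In DLS422 PQM-1 also had a second peak 595 bp beyond the other end of gst-42 (X 11725230 to 11725765, 2.48-fold), and the nearest OP201 summit to it was 1436 bp away. The peak over the gene's end also lay within reach of the neighbouring gene D1053.2.

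gst-36, also on X, was bound in every list but CEH-60 in DLS435. The main peak lay 118 to 241 bp outside the gene, at X 9862814 to 9863653 in CEH-60 replicate 1. Its fold was 4.09 for UNC-62 and 13.2 for CEH-60 in DLS396, 4.58 with mIgG1 and 9.10 in replicate 1, where it ranked 1199 of 9008. PQM-1 had 2.67-fold in DLS422 and 2.87-fold in OP201, and CEH-60 replicate 2 had 2.14-fold. The nearest summit of CEH-60 in DLS435 was 4832 bp from that of replicate 2. R07B1.5 lay within reach of the same peak. PQM-1 in DLS422 had a further peak over the other end of gst-36 (2.04-fold, rank 3936 of 5020), also within reach of scav-5.

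gst-5 on chromosome II had the gst peak of highest fold in any list, 15.4 for CEH-60 in DLS396, where it ranked 766 of 8991 (II 10949259 to 10949876). The summit lay 753 to 895 bp outside the gene in the 7 lists with a peak, within reach of the neighbouring gene gskl-1. UNC-62 had 4.36-fold there, mIgG1 4.32 and CEH-60 replicate 1 7.69. PQM-1 had 2.80-fold in DLS422 and 3.19 in OP201, and CEH-60 replicate 2 had 1.99 (rank 2791 of 3430). A second, weaker peak lay 66 to 108 bp from the end of gst-5 in CEH-60 of DLS396 (3.30-fold), CEH-60 replicate 1 (2.96-fold) and PQM-1 in OP201 (2.63-fold, rank 2135 of 6001). PQM-1 in DLS422 had no peak at that second position, and its nearest summit was 687 bp away.

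gst-6 and gst-7 are neighbours on chromosome II and shared the peak between them, which 7 lists had. In CEH-60 replicate 1 it ran from II 4881507 to 4882182, with its summit 672 bp from gst-6 and 315 bp from gst-7. The fold was 3.34 for UNC-62 and 9.75 for CEH-60 in DLS396, 4.60 with mIgG1 and 7.53 in replicate 1. For PQM-1 it was 2.85 in DLS422 (rank 1044 of 5020) and 2.42 in OP201 (rank 2841 of 6001), and for CEH-60 replicate 2 it was 2.38. A peak at the far end of gst-6, 44 to 139 bp outside it, was present in both PQM-1 lists (2.15-fold in DLS422 and 2.24-fold in OP201) and in CEH-60 of DLS396 (5.90) and replicate 1 (4.71). PQM-1 had 2 further peaks in this stretch in both strains. One lay between gst-6 and gst-7, with 2.22-fold in DLS422 and 2.16-fold in OP201. The other lay between gst-7 and gst-8, with 2.18-fold in DLS422 and 1.79-fold in OP201, and made gst-8 the gene bound by PQM-1 alone.

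gst-22 on chromosome V was bound in 5 lists, with summits 69 to 81 bp outside the gene and within 12 bp of each other, the tightest of the regions found in 5 or more lists. CEH-60 had 7.16-fold in DLS396 and 6.68 in replicate 1 (V 16232175 to 16232507). PQM-1 had 2.72-fold in DLS422 and 3.02 in OP201, and CEH-60 replicate 2 had 2.35. UNC-62 had no peak here, and its nearest summit was 111243 bp from that of CEH-60 in DLS396. The mIgG1 list, made with the other anti-HA antibody, did not have it either.

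gst-26 and gst-27 on chromosome II shared a peak in 5 lists, at II 15164437 to 15164777 in CEH-60 replicate 1. CEH-60 had 7.72-fold in DLS396, 4.04 with mIgG1 and 5.89 in replicate 1, and PQM-1 had 2.10 in DLS422 and 2.36 in OP201. The gene ptr-20 lay within reach of it too. Both short-crosslinking CEH-60 lists lacked a peak at these genes. gst-29, in the same group of neighbours, had strong CEH-60 peaks and none of PQM-1. They were 10.7-fold in DLS396, 5.89 with mIgG1 (rank 1113 of 4429) and 9.38 in replicate 1 (rank 1098 of 9008), at II 15169908 to 15170314, with 4.35-fold for UNC-62. The summits of the 4 lists lay within 34 bp of each other, and the nearest PQM-1 summit of OP201 was 5494 bp from that of replicate 1. This was the strongest gst peak of replicate 1 and of the mIgG1 list.

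gst-11 on X was bound by CEH-60 alone, with 5.41-fold in DLS396, 5.61 with mIgG1, 6.63 in replicate 1 (X 3631304 to 3631979) and 1.57 in replicate 2. The replicate 2 peak ranked 3425 of 3430, near the very bottom of that list. The gene vep-2 lay within reach of the same peaks. gst-13 on chromosome II had CEH-60 peaks over its end in DLS396 (7.63-fold), with mIgG1 (3.66) and in replicate 1 (7.48, II 9231251 to 9231667). PQM-1 in OP201 had a peak at the same place (2.04-fold) and a further one 847 bp outside the gene (2.21-fold).

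gst-4, the reporter gene of the SKN-1 response, had a peak in 1 list. It was that of CEH-60 in DLS396 between gst-2 and gst-4 (IV 10142080 to 10142262), with 2.72-fold and rank 8721 of 8991, so near the bottom of the list. The same peak accounts for gst-2. The other genes bound in 1 or both of the DLS395 replicate 1 and DLS396 CEH-60 lists alone had peaks ranked at 49.0 to 93.3% of their list. gst-44 had 2 peaks in both lists, of 4.02 and 3.38-fold in DLS396 and 3.42 and 3.22-fold in replicate 1. gst-31 had 4.88-fold in DLS396 and 4.59 in replicate 1, gst-33 had 2.99 in DLS396 and 3.24 in replicate 1, and gst-23 had 3.29 in replicate 1 alone. The mIgG1 list also had a peak over gst-33 (V 3467786 to 3468073, 4.91-fold). Its summit lay more than 200 bp inside both ends of the gene, so it was not counted. gst-28, which shares a peak with gst-27, had 4.20-fold in DLS396, 2.50 with mIgG1 and 5.30 in replicate 1. gst-41 was bound with mIgG1 alone, at 3.60-fold (rank 3081 of 4429).

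gst-1, which encodes a pi class transferase, and gst-38 were each bound by CEH-60 and PQM-1 in 4 lists. At gst-1 the folds were 5.78 for CEH-60 in DLS396, 4.51 in replicate 1, 1.93 for PQM-1 in DLS422 and 2.05 in OP201, with summits up to 297 bp apart. At gst-38 they were 9.48 for CEH-60 in DLS396, 5.99 in replicate 1, 2.07 for PQM-1 in DLS422 and 2.72 in OP201. The gst-1 peaks lay within reach of its neighbours cls-2 or lin-12, and those of gst-38 within reach of F35E8.7 or F35E8.9. CEH-60 in DLS396 had a further peak at the other end of gst-1 (2.24-fold, rank 8979 of 8991).

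Of the 20 gst genes bound in no list, none had a peak of any list over its own body. Their nearest summits lay 1049 to 13904 bp away, with a median of 6564 bp, and 12 of them had none within 5000 bp in any list. gst-39 (1049 bp) and gst-10 (1058 bp, PQM-1 in OP201), a transferase that acts on the lipid peroxidation product 4-hydroxynonenal, lay just outside the limit of 1000 bp. Just inside it, gst-29 had a further CEH-60 replicate 1 summit at 957 bp. gst-9, gst-15 and gst-3 had their nearest summits at 1542, 1908 and 1869 bp. The others were gst-12, gst-14, gst-16, gst-17, gst-18, gst-19, gst-21, gst-25, gst-30, gst-32, gst-34, gst-35, gst-37, gst-40 and gst-43. The distance to the neighbouring genes on both sides summed to a median of 1477 bp for the 24 bound genes, 1932 bp for the 20 unbound and 2093 bp over all genes.

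Binding was uneven across the tandem arrays. With neighbours less than 10 kb apart joined, 25 gst genes formed 4 groups and 19 stood alone, and 12 genes of each kind were bound in some list. The array from gst-20 to gst-18 on chromosome II holds 9 gst genes in 22.7 kb, of which gst-20 and gst-24 were bound, through a single peak between them. The array from gst-26 to gst-35 holds 9 in 21.6 kb, of which gst-26, gst-27, gst-28, gst-29 and gst-31 were bound. In the group from gst-6 to gst-9, 3 of 4 genes were bound, and in the group of gst-3, gst-2 and gst-4, 2 of 3. By chromosome, 12 of 25 gst genes were bound on II, 6 of 9 on V, 2 of 4 on IV, 3 of 3 on X, 1 of 1 on III and 0 of 2 on I. Of all genes, 28.3% were bound in some list on II, 29.0% on V, 27.7% on IV, 40.6% on X, 30.2% on III and 24.9% on I. Genes of an array share peaks and are not independent loci. The treatment of reads matching more than 1 gene copy is likewise not given in the sources.

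**Figure D3:**
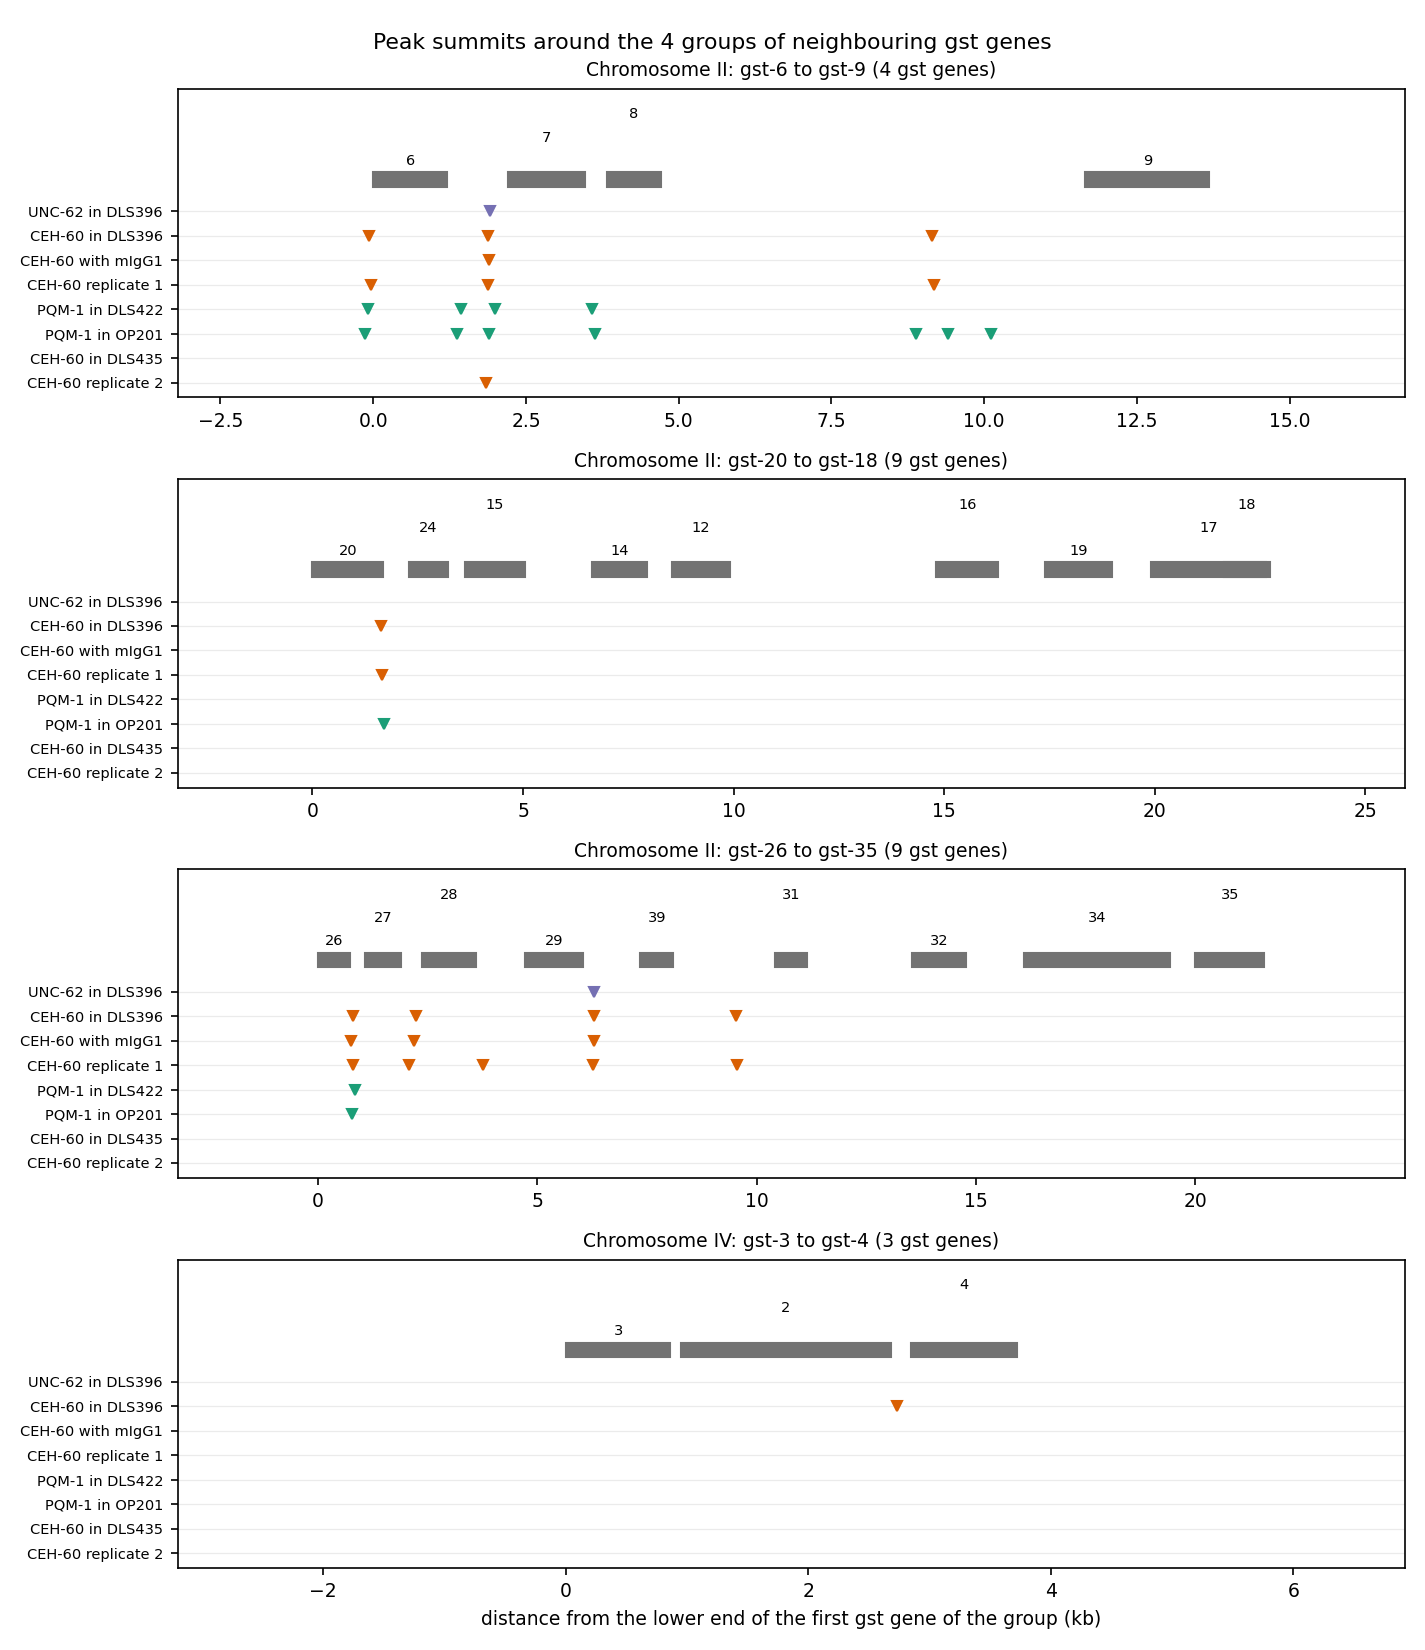
Grey boxes are the gst genes of each group of neighbours, numbered by gene, and triangles are the peak summits of each of the 8 lists, against distance in kb from the lower end of the group's first gene. Summits of several lists stack between gst-6 and gst-7, between gst-26 and gst-27 and beside gst-29, and 7 of the 9 genes of the gst-20 to gst-18 array have none at their ends.

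In the strain DLS396 CEH-60 had 21 gene-end peaks at gst genes and UNC-62 had 5. Each of the 5 UNC-62 peaks overlapped a CEH-60 peak, with summits 0 to 26 bp apart, and of all UNC-62 gene-end peaks 99.4% did. They lay between gst-6 and gst-7, beside gst-5, gst-29 and gst-36, and over the end of gst-42. Of the 21 gst genes bound by CEH-60, UNC-62 bound 6, which is 28.6%, and over all genes it was 23.4%. The UNC-62 peaks at gst genes ranked at 32.8 to 84.2% of its list, and the strongest was that at gst-42 (rank 673 of 2051).

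Of the 20 gst genes bound in CEH-60 replicate 1, 19 were also bound in DLS396, against 91.6% over all genes. gst-23 was in replicate 1 alone, and gst-2 and gst-4 in DLS396 alone. With mIgG1, 11 of the 20 were bound, against 49.0% over all genes, and in replicate 2, 7 were bound, against 36.8%. Of the 21 gst peaks of replicate 1, 19 overlapped a DLS396 peak, 9 a mIgG1 peak and 6 a replicate 2 peak. Over all gene-end peaks of replicate 1 the shares were 91.8% for DLS396, 44.1% for mIgG1 and 33.7% for replicate 2. The 7 genes of both replicates were gst-5, gst-6, gst-7, gst-11, gst-22, gst-36 and gst-42.

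PQM-1 in DLS422 and OP201 shows whether the sites of PQM-1 at gst genes are present in animals labelled ceh-60(ok1485). PQM-1 bound 11 gst genes in DLS422 and 14 in OP201, and the 11 were all among the 14. That nesting depended on the cutoff. With a −log10 q of 5 or more, gst-8 was bound in DLS422 alone, and with the 2000 peaks of highest fold gst-6 and gst-7 were. With a limit of 500 bp outside, gst-5 was bound in OP201 alone. Over all genes, 71.3% of those bound in OP201 were bound in DLS422, and 89.8% of those bound in DLS422 were bound in OP201. The genes in both strains were gst-1, gst-5, gst-6, gst-7, gst-8, gst-22, gst-26, gst-27, gst-36, gst-38 and gst-42. The 3 in OP201 alone were gst-13 and the pair gst-20 and gst-24, which share a peak. No DLS422 summit lay nearer than 28994 bp to the OP201 peak at gst-20 and gst-24 (2.47-fold, rank 2682 of 6001), or nearer than 29265 bp to those at gst-13. CEH-60 peaks of replicate 1 and of DLS396 lay at the place of the gst-20 and gst-24 peak and of 1 of the 2 at gst-13. The CEH-60 peak at gst-20 and gst-24 had 3.51-fold in replicate 1 (rank 6083 of 9008) and 4.27-fold in DLS396 (rank 6233 of 8991). CEH-60 peaks of replicate 1 were also present at 10 of the 11 genes bound in both strains, the exception being gst-8. By peaks, 12 of the 15 gst peaks of OP201 overlapped a CEH-60 replicate 1 peak, against 86.0% of all OP201 gene-end peaks. Of the 15 gst peaks of OP201, 11 overlapped a DLS422 peak, with summits 7 to 123 bp apart, against 68.4% of all OP201 gene-end peaks.

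CEH-60 in DLS435 and in replicate 2 shows whether the sites of CEH-60 at gst genes are present in animals labelled pqm-1(ok485). CEH-60 bound 1 gst gene in DLS435, gst-42, and 7 in replicate 2, gst-42 among them. Over all genes, 53.3% of those bound in replicate 2 were bound in DLS435, and 94.6% of those bound in DLS435 were bound in replicate 2. The 6 genes bound in replicate 2 alone were gst-5, gst-6, gst-7, gst-11, gst-22 and gst-36, through 5 peaks, and the nearest DLS435 summits lay 4832 to 89920 bp from these. PQM-1 of OP201 had a peak at 5 of the 6 genes, all but gst-11. By peaks, 5 of the 6 gst peaks of replicate 2 overlapped a PQM-1 peak of OP201, against 87.8% of all replicate 2 gene-end peaks. PQM-1 of OP201 also had a peak at gst-42, which was bound in DLS435. The DLS435 list is the shortest of the 8. With the 2000 peaks of highest fold of each list, gst-42 was bound in DLS435 and not in replicate 2. The gst genes of replicate 2 were then gst-6, gst-7 and gst-22, none of them bound in DLS435. Over all genes, 69.4% of those bound in replicate 2 were then bound in DLS435. With the other windows and the stricter q, gst-42 was bound in both lists.

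Over all genes, the share also bound in DLS422 or DLS435 was lower for genes with lower-ranked peaks, and no test of that difference was made. Of all genes whose strongest replicate 2 peak ranked in the first 50% of the list, 75.1% were bound in DLS435, and 0 of the 3 such gst genes (gst-6, gst-7 and gst-22) were. Of those that ranked lower, 25.4% were, and 1 of the 4 such gst genes (gst-5, gst-11, gst-36 and gst-42) was. No gst gene ranked in the first 25%, where 91.2% of genes were bound in DLS435. gst-6, gst-7 and gst-22 ranked between 25% and 50%, where 56.5% of all genes were. gst-6 and gst-7 share 1 replicate 2 peak, so these 3 genes are not independent. For PQM-1, 87.0% of all genes in the first 50% of the OP201 list were bound in DLS422, and 7 of the 9 such gst genes were. Of those that ranked lower, 44.7% were, and 4 of the 5 such gst genes were. How much of the difference at gst genes goes with the ranks of their peaks was not tested.

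**Figure D4:**
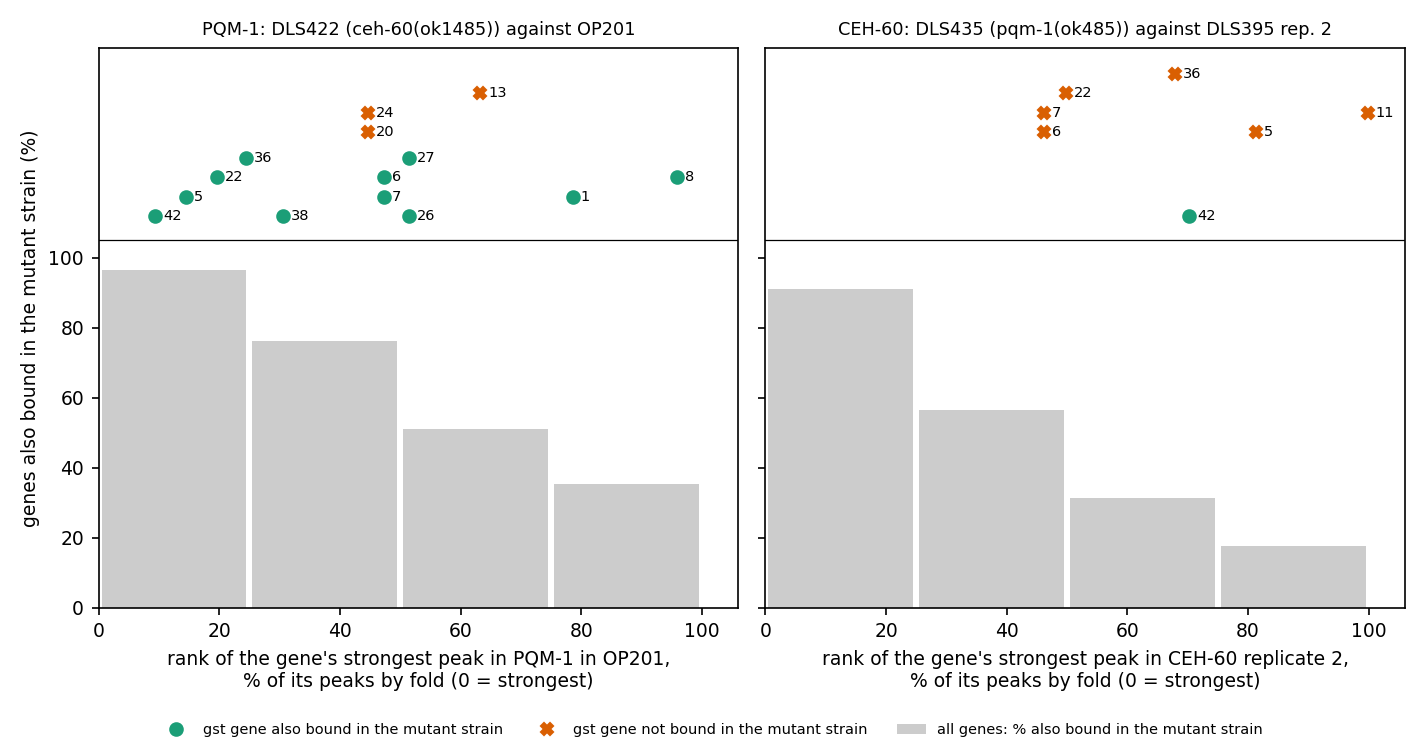
Grey bars give the percentage of bound genes that were also bound in DLS422 or DLS435, which the figure calls the mutant strain. The genes are those bound in PQM-1 of OP201 on the left and in CEH-60 replicate 2 on the right. OP201 and DLS395 carry labelled alleles too. Bars are divided by the rank of the gene's strongest peak as a percentage of the list. Points above the line are gst genes, placed by that rank, at heights with no meaning. Green circles are those also bound in DLS422 or DLS435, and orange crosses are the others. On the left 11 of 14 gst genes are green, and on the right gst-42 alone is, with no gst gene in the first 25% of the list.

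The overlap of CEH-60 and PQM-1 peaks at gst genes was near that over all gene-end peaks. Of the 21 gst peaks of CEH-60 replicate 1, 12 overlapped a PQM-1 peak of OP201, against 56.8% of all its gene-end peaks, with summits 2 to 278 bp apart and a median of 41 bp. Of the 15 gst peaks of PQM-1 in OP201, 12 overlapped a CEH-60 replicate 1 peak, against 86.0% of all its gene-end peaks. Within the short protocol, 5 of the 6 gst peaks of CEH-60 replicate 2 overlapped a PQM-1 peak of OP201, and over all gene-end peaks 87.8% did.

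By rank, the peaks at gst genes were near the middle of the CEH-60 list of DLS396 and of the PQM-1 list of OP201, and lower in PQM-1 of DLS422 and in CEH-60 replicate 2. The median rank of the 21 gst peaks of CEH-60 in DLS396 stood at 50.2% of the list, against 50.3% for all gene-end peaks, and the 21 of replicate 1 at 40.2%, against 49.6%. The 13 PQM-1 peaks of DLS422 stood at 60.9%, against 45.8%, and the 15 of OP201 at 47.3%, against 45.5%. The 6 of CEH-60 replicate 2 stood at 69.1%, against 48.7%. Limiting every list to its 2000 peaks of highest fold left 3 gst genes bound in CEH-60 of DLS396, or 6.82% against 6.22% of all genes, and 7 in replicate 1, or 15.9% against 6.32%. In PQM-1 it left 6 in DLS422, or 13.6% against 6.78%, and 5 in OP201, or 11.4% against 7.34%. In CEH-60 replicate 2 it left 3, or 6.82% against 6.24%. It left 6 for UNC-62, or 13.6% against 6.03%, 5 with mIgG1, or 11.4% against 5.87%, and 1 for CEH-60 in DLS435, or 2.27% against 5.38%. The gst interval then lay above the share of all genes in UNC-62 and in CEH-60 replicate 1, and held it in the other 6 lists.

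The rest of the glutathione pathway was described by counts, and no test between its lists was made. Genes of glutathione synthesis and recycling stood at 4 of 8 in CEH-60 of DLS396, against 25.5% of all genes, and at 4 of 8 in replicate 1, against 25.2%. In replicate 1 they were gcs-1, which encodes the rate-limiting enzyme of glutathione synthesis (4.03-fold), gss-1, glutathione synthetase (3.34), gsr-1, glutathione reductase (2.70), and the glutaredoxin gene glrx-22 (7.50). CEH-60 in DLS396 had gcs-1, gsr-1 and glrx-22 too, and glrx-10 (3.81-fold) instead of gss-1. PQM-1 was at glrx-22 in DLS422 (2.67-fold) and at glrx-22 (2.90) and gcs-1 (1.91) in OP201. Of the 5 omega and kappa class genes, gstk-1 alone was bound in any list, against 29.8% of all genes. It had 7.04-fold for CEH-60 in DLS396, 5.01 for CEH-60 replicate 1, 2.29 for PQM-1 in DLS422 and 2.71 for PQM-1 in OP201. These PQM-1 peaks did not overlap, with II 9655642 to 9656109 in DLS422 and II 9656309 to 9656647 in OP201. Of the 7 glutathione peroxidase genes found in the table, CEH-60 replicate 1 bound 4, against 25.2% of all genes. They were gpx-1, gpx-3, gpx-5 and gpx-7, with gpx-5 the strongest (10.3-fold). CEH-60 in DLS396 also bound 4, against 25.5%, and PQM-1 in OP201 bound 2, against 16.9%. With mIgG1 1 was bound, against 12.8%, in PQM-1 of DLS422 1, against 13.4%, and in CEH-60 replicate 2 1, against 9.66%. UNC-62 bound 0, against 6.18%, and CEH-60 in DLS435 bound 0, against 5.44%.

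Of these lists, the exporters of conjugates had the peaks of highest fold in CEH-60 replicate 1. mrp-5, which also exports heme from the worm's intestine, had 12.3-fold in CEH-60 replicate 1, and PQM-1 had 3.63-fold there in DLS422 and 4.87 in OP201, where it ranked 22 of 6001. CEH-60 ranked 6 of 2048 there in DLS435 (3.93-fold) and 20 of 3430 in replicate 2 (4.34-fold). mrp-3 had 12.9-fold in replicate 1, 2.00 for PQM-1 in DLS422, 2.11 in OP201, 2.10 for CEH-60 in DLS435 and 1.99 in replicate 2. These were 2 of the 8 exporter genes, and both were bound in all 8 lists, as were 3.01% of all genes. mrp-6 (3.69-fold) and mrp-4 (2.79-fold) were also bound in replicate 1, which made 4 of 8, against 25.2% of all genes. Enzymes that remove peroxide and superoxide stood at 4 of 15 in replicate 1 (sod-1, sod-4, prdx-2 and prdx-3), near the 25.2% of all genes. They stood at 0 of 15 in UNC-62 of DLS396, against 6.18% of all genes, and with mIgG1, against 12.8%. In CEH-60 of DLS435 and in CEH-60 replicate 2 they also stood at 0 of 15, against 5.44% and 9.66%. PQM-1 was at 2 of the 15 in both strains, against 13.4% of all genes in DLS422 and 16.9% in OP201. It had 2.01-fold in DLS422 and 2.09 in OP201 at sod-1, and 2.20 in DLS422 and 2.37 in OP201 at prdx-2.

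Of the 9 listed regulators of gst expression, 8 were bound in CEH-60 replicate 1, against 25.2% of all genes, and 3 in CEH-60 replicate 2, against 9.66%. PQM-1 was at 7 of the 9 in DLS422, against 13.4% of all genes, and at 7 in OP201, against 16.9%, with pqm-1 itself among them in both. CEH-60 in DLS435 was at 0 of the 9, against 5.44%. skn-1 itself had a CEH-60 peak of 3.18-fold in replicate 1 and none of PQM-1. wdr-23, whose product sends SKN-1 for degradation, had 6.31-fold in CEH-60 replicate 1, 2.28 for PQM-1 in DLS422 and 2.99 in OP201. The forkhead gene daf-16 had 7.56-fold in CEH-60 replicate 1, 2.88 for PQM-1 in DLS422, 3.37 in OP201 and 2.23 in CEH-60 replicate 2. The p38 kinase gene pmk-1, which acts upstream of SKN-1, had 7.44-fold in CEH-60 replicate 1, 2.95 for PQM-1 in DLS422, 3.41 in OP201 and 2.40 in CEH-60 replicate 2. nsy-1, a kinase gene of the same pathway, had 9.28-fold in CEH-60 replicate 1 and 2.14 in replicate 2, with 3.16 for PQM-1 in OP201 and no DLS422 peak. elt-3 and mdt-15 were bound by CEH-60 in replicate 1 and by PQM-1 in both strains, and sek-1 by PQM-1 in DLS422 alone. At pqm-1 itself a single PQM-1 peak ran from II 11150718 to 11156757 in DLS422 (2.05-fold) and from II 11150722 to 11156744 in OP201 (2.06-fold). Both strains carry wgIs201, and the part of the transgene's own DNA in those peaks was not tested.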

How the data were processed

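Peak lists of 8 immunoprecipitated samples were used as deposited, 1 per sample. Per the submitters' processing notes, the authors used Bowtie2, SAMtools, MACS2 and deepTools, without versions. No genome build, control library, duplicate handling or rule for multiply mapping reads is given in these sources. The deposited lists hold a score, which was not used, a fold enrichment, which is a linear ratio to the local background, and −log10 p and −log10 q values. Read depth is unknown.

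Genes came from a RefSeq table of WBcel235. Because the build of the lists is not given, the lists were shifted along the table in steps of 10 bp, and the share of summits outside genes was highest at shifts of -30 to 20 bp, so no large offset was seen. The window for a bound gene reached 1000 bp outward and 200 bp inward from each end. An overlap of 1 bp was enough for a pair of peaks. The table gives no strand or sequence, so the 5′ end alone and promoter motifs were not examined. gpx-8 was not matched, which left 7 of 8 listed peroxidase genes.

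The fold of the strongest peak in each list that bound the gene is given for a chosen set of gst genes, and ranks for some. These are genes bound in 5 or more lists, with the 3 highest folds of a list, or bound in 1 strain of a pair. The set also holds gst-4, gst-5, gst-13 and gst-42, and gst-10, which no list bound. Members and lists were chosen with earlier results of these data known. Intervals are Wilson 95% intervals and cover counting error only. No p-value was computed. The gene calls were tested on simulated data. Tables were handled in pandas 2.3.3 and numpy 2.4.6 under Python 3.11.15, intervals came from scipy 1.17.1, and figures were drawn with matplotlib 3.10.9. Alternatives were narrower and wider windows, any base of a peak in the window, a −log10 q of 5 or more, the 2000 peaks of highest fold, a stricter overlap and leaving out each replicate.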

Additional observations from a re-analysis of the deposited data

How the results depend on the processing

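Of 78 alternative values for 20 results, 60 lay within 1.5 times the reported count. Any base of the peak in the window, or a −log10 q of 5 or more, moved none past that, although gst-2 and gst-4 lost their peak under the second. The 2000 peaks of highest fold left 3 gst genes in CEH-60 of DLS396, 5 with mIgG1, 7 in replicate 1, 6 in PQM-1 of DLS422, 5 in OP201 and 3 in CEH-60 replicate 2. They left 4 gst genes bound by PQM-1 in both DLS422 and OP201, and 1 in OP201 and not DLS422. Of all genes bound in OP201 the shares were then 71.6% and 28.4%. For CEH-60 they left 0 in both DLS435 and replicate 2, and 3 in replicate 2 and not DLS435. Of all genes bound in replicate 2 the shares were 69.4% and 30.6%. With UNC-62 and CEH-60 in DLS396 they left 3, against 75.5% of all genes bound by CEH-60 there. In both replicates they left 2, against 68.6% of all genes bound in replicate 1. Shorter lists hold fewer peaks by construction. With 500 bp outside, replicate 2 had 4 gst genes, of which 3 were not in DLS435 and 4 were in replicate 1. Over all genes 6.92% were bound in replicate 2, and 48.5% of these were not in DLS435. Of all genes bound in replicate 1, 35.0% were in replicate 2. With 2000 bp, 6 of the 18 gst genes bound in OP201 were not bound in DLS422, against 27.3% of all genes bound in OP201. Where 50% of both peaks had to overlap, 2 CEH-60 gst peaks of DLS396 overlapped UNC-62, against 5. In place of the 7 gst genes of both replicates, leaving out 1 replicate gave 7 to 20. No paired analysis was possible because every other group had 1 list and no test over samples was made. The 5′ end alone was not run. The number of peaks and the unknown read depth limit what an absent peak shows.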
